A study of Homo sapiens with 2 samples.

Results

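RGS proteins, the regulators of G-protein signalling, were examined in K562 cells, an established human leukaemia line driven by the fusion kinase BCR-ABL1. The members were the 9 genes RGS1, RGS2, RGS3, RGS10, RGS12, RGS14, RGS16, RGS18 and RGS19, found through the symbols of the array's probes, out of 18377 genes measured. They were chosen with their differences between the arrays known, so these differences are given as a description and carry no test. The first sample was of cells grown with erythropoietin (EPO), the hormone of red cell production, and treated with imatinib, an inhibitor of BCR-ABL1, at 2 µM for 6 h. The second was of cells given the same imatinib treatment, whose own label names no EPO; the growth protocol describes cultures with and without EPO, and this one is read as the culture without it. Both samples share the imatinib treatment, and cells without imatinib were not analysed here. Total RNA of each was hybridised to 1 Affymetrix whole-transcript Gene ST array. Each group is 1 array, so there are no replicates, no difference could be tested, and this number of arrays limits the precision.

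RGS proteins act on heterotrimeric G proteins, which carry signals from receptors that span the membrane. A receptor loads the G protein's alpha subunit with GTP, and the alpha subunit and the paired beta and gamma subunits then act on enzymes and channels. An RGS protein speeds the hydrolysis of that GTP and so shortens the signal. The EPO receptor is a cytokine receptor that signals mainly through the kinase JAK2. The family is commonly divided by sequence into the R4, R7, R12 and RZ subfamilies, and RGS2 is a small R4 protein known to act mainly on alpha subunits of the Gq class.

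The letters before the transcription start are shown for 3 members that differed in how far they moved between the arrays: RGS2, the gene that moved most, RGS16, the next, and RGS1, which lies near RGS2 on the same chromosome. Each run is the 250 bases before the start, read 5′ to 3′ in the direction of the gene from RefSeq sequence of build GRCh38.p14. The windows are chr1:192808789-192809038 on the plus strand for RGS2, chr1:182604390-182604639 on the minus strand for RGS16 and chr1:192575523-192575772 on the plus strand for RGS1. Capitals mark 4 short motifs on either strand: the half-site of the cyclic AMP response element (TGACGT), the GC box (GGGCGG), the CCAAT box (CCAAT) and the TATA box (TATAAA).

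RGS2: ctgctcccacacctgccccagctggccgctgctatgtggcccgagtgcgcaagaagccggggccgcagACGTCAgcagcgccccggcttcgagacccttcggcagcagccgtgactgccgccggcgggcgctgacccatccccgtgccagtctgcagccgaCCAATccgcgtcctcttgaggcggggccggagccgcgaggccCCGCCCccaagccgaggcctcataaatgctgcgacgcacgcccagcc
RGS16: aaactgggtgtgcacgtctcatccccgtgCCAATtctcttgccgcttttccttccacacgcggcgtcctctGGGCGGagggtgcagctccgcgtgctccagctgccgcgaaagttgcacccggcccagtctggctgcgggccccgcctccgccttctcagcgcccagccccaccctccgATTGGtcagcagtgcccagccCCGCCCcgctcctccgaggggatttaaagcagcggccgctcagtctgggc
RGS1: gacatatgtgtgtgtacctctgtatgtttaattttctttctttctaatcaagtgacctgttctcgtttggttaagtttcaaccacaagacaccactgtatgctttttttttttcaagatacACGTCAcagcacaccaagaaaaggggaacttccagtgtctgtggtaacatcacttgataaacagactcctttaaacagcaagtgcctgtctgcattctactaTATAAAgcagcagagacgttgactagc

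RGS2 was the 1 member past 2-fold. Its log2 value was -0.92 on the array with EPO, against 1.89 on the array without EPO. It lay below the authors' baseline on the array with EPO and above it on the other. The difference, with EPO minus without EPO, was -2.81 on the log2 scale, which is 7.01-fold lower with EPO. Among all 18377 genes RGS2 had the 9th lowest value on the array with EPO and the 19th highest value on the array without EPO. Its difference was the 12th lowest. The threshold for calling a gene higher or lower was 2-fold, a log2 difference of 1, and 0.898% of all genes were called lower and 6.19% higher. Of the 9 members, 1 was called lower and 0 higher. Among the 16864 protein-coding genes alone, 77 (0.457%) were called lower.

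The deposited values are centred on a baseline that the sources used here do not describe, so a value is a deviation and not the amount of a transcript. The difference between the arrays cancels that baseline. The base of the logarithm is not stated either, and the folds assume base 2. The arrays deviated from the baseline to unequal extents, with a standard deviation across probes of 0.134 with EPO and 0.431 without EPO. Across all genes the arrays' values had a Pearson correlation of -0.69 (n = 18377 genes, which share both arrays and the baseline and are not independent). Both arrays are centred on the same baseline, so how much of this relation comes from the centring cannot be told. RGS2 lay at one end of the relation.

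**Figure D1:**
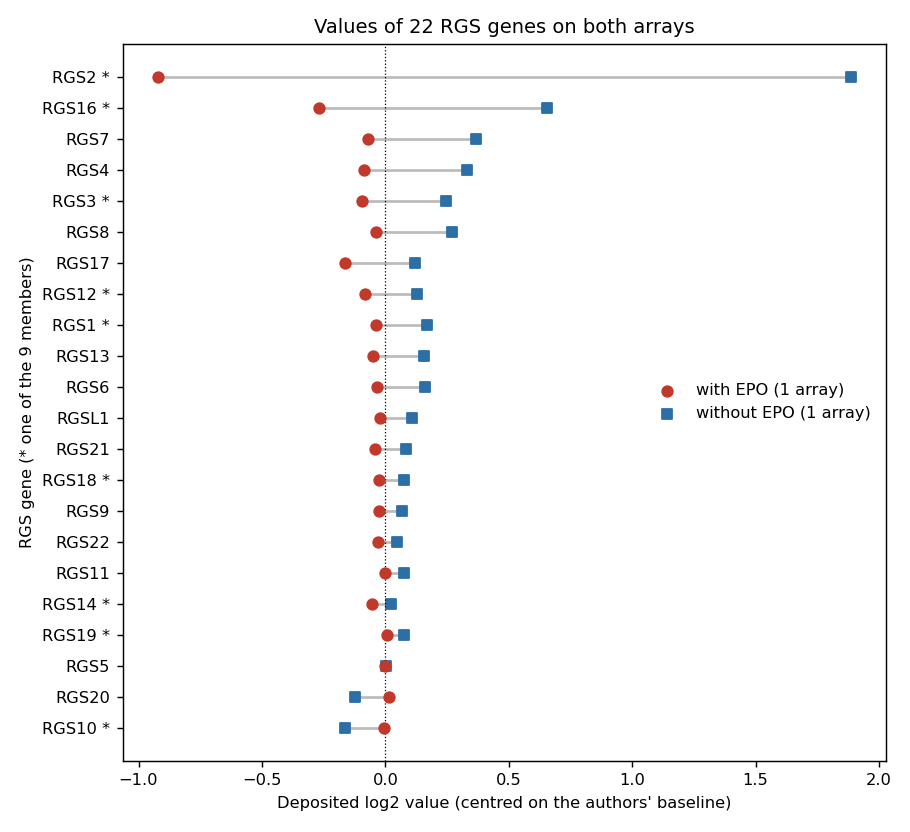
Deposited log2 values (horizontal axis, centred on the authors' baseline) of 22 RGS genes (vertical axis, ordered by their difference) on the array with EPO (red circles) and the array without EPO (blue squares), 1 array each and hence no error bars. RGS2 lies at -0.92 with EPO and 1.89 without EPO, RGS16 at -0.27 with EPO and 0.65 without EPO, and every other RGS gene lies within 0.37 of 0 on both arrays.

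RGS16, another small R4 protein that acts on alpha subunits of the Gi and Gq classes, came next. Its value was -0.27 on the array with EPO, against 0.65 on the array without EPO. The difference of -0.92 (1.90-fold lower) fell just short of the 2-fold rule, at percentile 1.10 of all genes. RGS2 minus RGS16, on the log2 scale of the difference, was -1.89. Subtracting the median difference of 258 genes of cellular machinery (0.48), chosen by symbol, took RGS16 to -1.40 and past 2-fold, so that 2 of the 9 members were called lower, and 6.57% of all genes were called lower under that scaling. Subtracting that of 454 genes of families that few cells express, such as olfactory receptors (-0.33), left RGS16 at -0.60. RGS2 stayed past 2-fold under both scalings, at -3.29 and -2.48.

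The remaining R4 members differed less. RGS3, which also has long forms with a PDZ domain, had -0.096 with EPO, against 0.25 without EPO, a difference of -0.34. RGS1, known for limiting chemokine receptor signals in lymphocytes, had -0.039 with EPO, against 0.17 without EPO, a difference of -0.21. RGS18, a regulator abundant in platelets and megakaryocytes, had -0.025 with EPO, against 0.076 without EPO, a difference of -0.10. These 3 genes therefore lay on the same side as RGS2 and within 2-fold. RGS1 and RGS18 turned positive, at 0.12 and 0.23, when the median of the rarely expressed families was subtracted, and RGS3 came to -0.014.

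The R12 and RZ members lay near 0. RGS12, a large protein with PDZ, Ras-binding and GoLoco domains, had -0.083 with EPO, against 0.13 without EPO, a difference of -0.21. RGS14, which shares the Ras-binding and GoLoco domains, had -0.053 with EPO, against 0.023 without EPO, a difference of -0.076. RGS10, a small protein of the same subfamily, was the 1 member with a positive difference: -0.0055 with EPO, against -0.16 without EPO, which gives 0.16. It was also the 1 member whose value without EPO was below the baseline. RGS19, the RZ protein also called GAIP, had 0.0052 with EPO, against 0.077 without EPO, a difference of -0.071. Each of these 4 was within 1.16-fold of equality as deposited. The sign of RGS10 turned when the machinery median was subtracted (-0.32), and the signs of RGS12, RGS14 and RGS19 turned when the median of the rarely expressed families was subtracted (0.12, 0.25 and 0.26).

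Set against its family, RGS2 minus the median of the other 8 members was -2.65 in log2 difference, a 6.30-fold gap. A shift common to all genes cancels in this gap, but a shift that differs between gene classes does not. The median difference was 0.48 for the machinery genes and -0.33 for the rarely expressed families. Against the mean of the other 8 members the gap was -2.59, and against the median of all other RGS genes -2.68. With each array divided by its own standard deviation across genes, and the result multiplied by the mean of both standard deviations (0.278) to return to the log2 scale, it was -3.07. The other 8 members ran from -0.92 to 0.16, with a median of -0.15, beside a median of -0.047 for all genes. Without RGS16, the remaining 7 ran from -0.34 to 0.16, with a median of -0.10.

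The 13 other RGS genes were all measured, and 0 were past 2-fold in either direction. Over all genes 0.898% were called lower and 6.19% higher, so 0 among 13 genes lies near those shares. In the R4 subfamily RGS4, a regulator of Gi and Gq signals in brain and heart, stood at -0.42, RGS8 at -0.31, RGS13 at -0.21 and RGS21 at -0.12. RGS5, known from pericytes, was at -0.0052, with values of -0.0026 with EPO and 0.0026 without EPO. In the R7 subfamily, whose members pair with the G beta subunit GNB5, RGS7 stood at -0.44, RGS6 at -0.19, RGS9 at -0.091 and RGS11 at -0.077. In the RZ subfamily RGS17 stood at -0.28 and RGS20 at 0.14. RGSL1 and RGS22 stood at -0.13 and -0.078. The 2 probes of RGSL1 stood at -0.24 and -0.020, and each other RGS gene had 1 probe. Another 2 probes carry RGS4 together with the symbols ZNF320 and RPS27, differed by -0.52 and -0.44, and were left out because their signal cannot be assigned to 1 gene.

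Over all 22 RGS genes, 20 (90.9%) had a difference below 0, against 54.6% of all genes. The share was 91.4% among the 454 genes of rarely expressed families. With the median of those families subtracted 5 of the 22 RGS genes lay below 0, beside 3467 of all 18377 genes. The median was -0.16 for the 22 RGS genes and -0.13 without RGS2, beside -0.047 for all genes and -0.33 for those families. By subfamily the medians were -0.26 for the 10 R4 genes, -0.21 for R4 without RGS2, -0.14 for the 4 R7 genes, -0.076 for the 3 R12 genes and -0.071 for the 3 RZ genes. The order of these medians has no replicate check. A value below the baseline with EPO and above it without EPO was found in 7 of the 9 members and 19 of the 22 RGS genes, against 44.3% of all genes and 71.4% of the rarely expressed families.

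**Figure D2:**
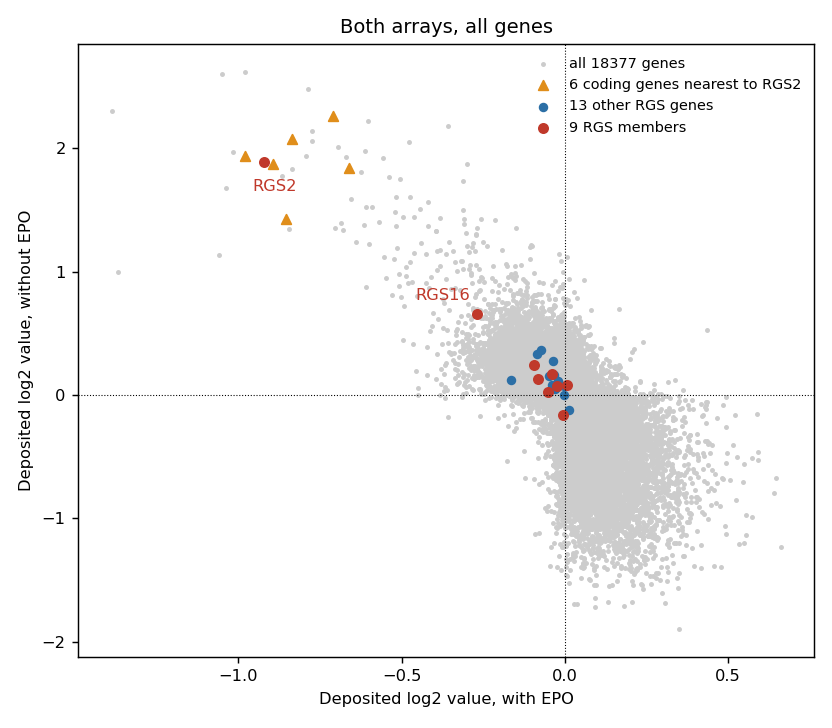
Deposited log2 values of every gene on the array with EPO (horizontal axis) and the array without EPO (vertical axis), with the 9 members in red, the 13 other RGS genes in blue and the 6 protein-coding genes nearest to RGS2 as orange triangles. RGS2 lies at the upper left, at -0.92 and 1.89, RGS16 lies at the upper left edge of the main cloud, and the other RGS genes lie inside it near 0.

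The protein-coding genes with values most like those of RGS2 were ranked by Euclidean distance over the values of the 2 arrays. GADD45B, a stress-response gene, was the nearest, at a distance of 0.034, with -0.89 with EPO and 1.87 without EPO. EGR1, an immediate-early transcription factor, followed at 0.075, with -0.98 with EPO and 1.94 without EPO. IER3, an immediate-early response gene, lay at 0.20, with -0.84 with EPO and 2.07 without EPO. The histone H2AC4, the inhibitor of differentiation ID1 and the histone H4C4 were next, at distances of 0.27, 0.43 and 0.47. Their differences were -2.50, -2.97 and -2.28. Few genes came this close to RGS2: 9 of the 16863 other protein-coding genes lay within 0.5 of it, whereas 3834 lay within 0.5 of RGS16. Within 0.25 there were 3 genes around RGS2, 468 around RGS16 and 8801 around RGS19. The distance uses the same 2 values by which RGS2 stood out. These counts therefore restate its outlying position and are not a separate result. A likeness over 2 arrays describes these arrays only.

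RGS2 is also the last of 5 RGS genes that follow each other among the protein-coding genes of chromosome 1. In RefSeq order RGS18, RGS21, RGS1, RGS13 and RGS2 are consecutive, with no other protein-coding gene between them. The 4 genes before RGS2 had differences of -0.10, -0.12, -0.21 and -0.21. RGS13, the direct neighbour of RGS2 and a regulator known from B cells and mast cells, had -0.049 with EPO, against 0.16 without EPO. RGS2 minus RGS13 was -2.60 in log2 difference, a 6.07-fold gap. On the other side, UCHL5, a proteasome-bound deubiquitinase, had 0.19 with EPO, against -0.38 without EPO, a difference of 0.57. Next to it RO60, an RNA-binding protein, had 0.17 with EPO, against -1.32 without EPO, a difference of 1.48 (2.80-fold higher). GLRX2, a mitochondrial glutaredoxin, differed by 0.11. RGS2 minus UCHL5 was -3.38, so both direct neighbours stood well above RGS2 in the difference. Of the 11 RGS genes on chromosome 1, 1 was past 2-fold, RGS2 itself, beside 0.898% of all genes called lower and 6.19% higher. The median of the other 10 was -0.21, beside -0.078 for the 11 RGS genes on other chromosomes.

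**Figure D3:**
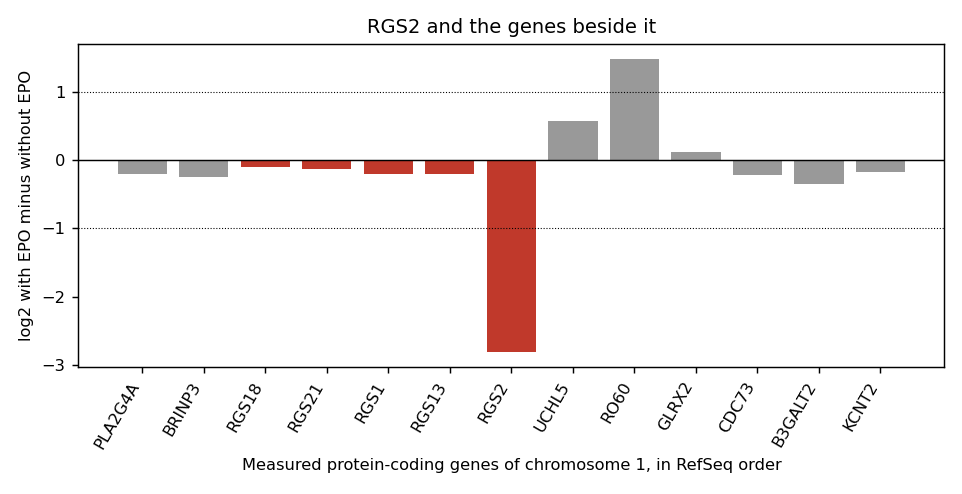
Difference with EPO minus without EPO (vertical axis, log2; dotted lines at 2-fold) of RGS2 and the 6 measured protein-coding genes on each side of it, in RefSeq order along chromosome 1 (horizontal axis), RGS genes in red. RGS2 reaches -2.81, the 4 RGS genes before it lie between -0.21 and -0.10, and RO60 on the other side reaches 1.48.

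The letters before the start of RGS2 differed in base composition from those of its RGS neighbours. The RGS2 window was 72.8% G or C, against 32% for RGS13, 39.2% for RGS1, 27.2% for RGS21 and 34.8% for RGS18, and the median of 35116 windows of that length was 58%. The RGS16 window, at 68.4%, was nearer to that of RGS2. The windows of the remaining members ran from 34.8% for RGS18 to 80.4% for RGS19. The RGS19 windows were 80.4% and 72.8%, with a difference of -0.071. The RGS10 windows were 77.2% and 46%, with a difference of 0.16. The half-site TGACGT stood on the minus strand at positions -182 to -177 of RGS2 and -129 to -124 of RGS1, counted from the transcription start, and in 7.1% of all windows. The difference of RGS1 was -0.21. A GC box stood at -47 to -42 and a CCAAT box at -89 to -85 of RGS2. RGS16 held 2 of each, and 42.6% and 32% of all windows hold these motifs. The TATA box letters TATAAA stood at -27 to -22 of RGS1, in none of the windows of RGS2 and RGS16, and in 10.7% of all windows. The full cyclic AMP element TGACGTCA, which contains the half-site (1.65% of all windows), and the STAT motif TTCNNNGAA (6.57%) were in none of the 19 windows of the 9 members. The EGR motif GCGGGGGCG (4.72%), was in windows of RGS10, RGS12 and RGS19, overlapping a GC box in each. Such matches describe letters and not bound sites. Whether the letters or the base composition had a part in the differences was not tested.

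Among the G proteins on which RGS proteins act, no measured subunit was called lower. Of 15 measured alpha subunits 1 was called higher and 0 lower, with a median difference of -0.011. GNAQ, an alpha subunit of the Gq class, had 0.19 with EPO, against -0.92 without EPO, a difference of 1.11 (2.15-fold higher). The other alpha subunits of that class, GNA11, GNA14 and GNA15, differed by 0.64, -0.054 and -0.41. GNAI3, of the inhibitory Gi class, differed by 1.00 (1.99-fold), just short of 2-fold, and GNA12 by 0.77. GNAQ, GNAI3 and GNA12 lay above 0, while 8 of the 15 measured alpha subunits lay below 0, down to -0.73. The background of higher calls is 6.19% of all genes, and that of lower calls 0.898%. Of 15 beta and gamma subunits 1 was called higher, GNB4 at 1.40 (2.63-fold), while GNB1 stood at 0.34 and GNG7 at -0.36, and the median was -0.027. With the machinery median subtracted, GNAQ and GNB4 came to 0.63 and 0.92, within 2-fold.

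Enzymes that G proteins control showed no call. Over all genes 0.898% were called lower and 6.19% higher. An absence of calls in lists of this size lies near those shares. The 13 adenylyl cyclases and phospholipase C beta enzymes had a median of -0.24, with 12 below 0, beside 54.6% of all genes. With the median of the rarely expressed families subtracted 4 of the 13 lay below 0, beside 3467 of all 18377 genes. As deposited, ADCY4, ADCY8 and PLCB2 led these enzymes, at -0.57, -0.55 and -0.50. Of 17 measured receptors of blood cells, 0 were past 2-fold, with the thrombin receptor F2R at 0.99, the prostaglandin receptor PTGER4 at -0.51 and the nucleotide receptor P2RY2 at -0.51, and a median of -0.13. Among 12 measured genes known to respond to cyclic AMP, the phosphatase gene DUSP1 was called lower, with -0.51 with EPO, against 1.19 without EPO, a difference of -1.70 (3.26-fold lower). CITED2 stood at -0.69 and NR4A3 at -0.54, while 4 of the 12 lay above 0. The median of that list was -0.32, beside -0.33 for the rarely expressed families. With the median of those families subtracted, 6 of the 12 lay below 0, beside 3467 of all 18377 genes. The difference of RGS2 was larger than that of DUSP1.

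Proteins that share or bind the RGS fold were also measured. The 16 proteins with an RGS-homology domain, which include receptor kinases, axins and sorting nexins, had a median of 0.27. Of these, 1 was called higher and 0 lower, beside 6.19% of all genes called higher and 0.898% lower. SNX14 stood at 1.04 (2.06-fold), or 0.56 with the machinery median subtracted, which is within 2-fold. SNX13 stood at 0.70 and AXIN1 at 0.57. The 5 partner proteins of RGS proteins had a median of -0.0097, with GPR179 at -0.47, GPR158 at 0.20 and GNB5 at -0.11. Of 7 measured other modulators and arrestins 0 were past 2-fold, with GPSM2 at 0.82, RIC8A at 0.70 and PCP2 at -0.30.

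**Figure D4:**
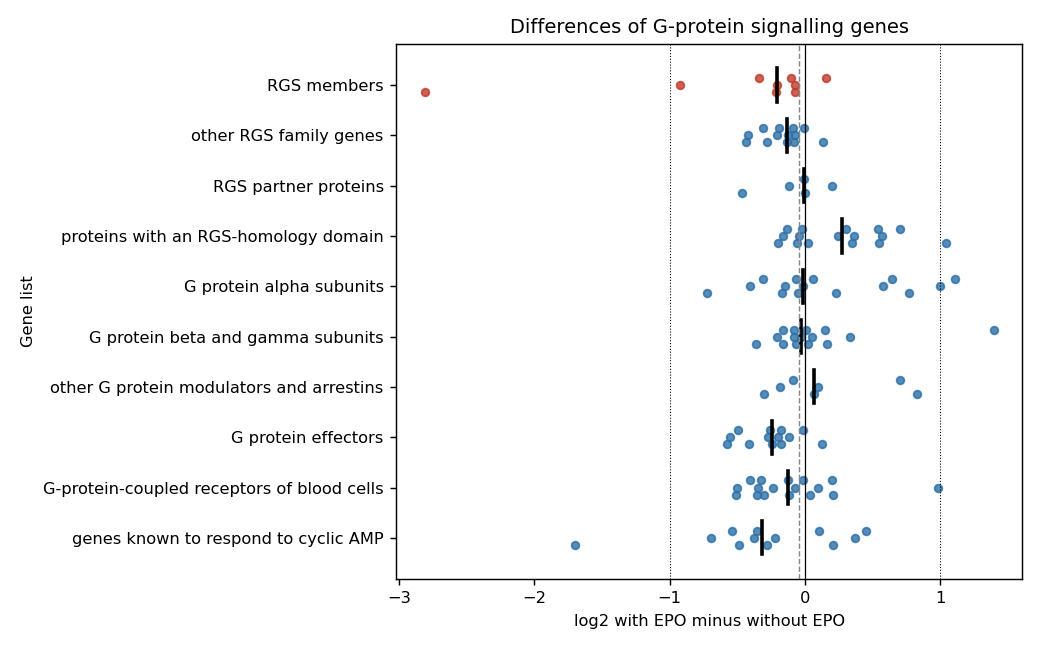
Difference with EPO minus without EPO (horizontal axis, log2) of each measured gene in the RGS and G-protein gene lists (vertical axis), with black bars at list medians, dotted lines at 2-fold and a dashed line at the median of all genes (-0.047). RGS2 at -2.81 and the cyclic AMP response gene DUSP1 at -1.70 are the only points past 2-fold on the lower side, and 3 genes lie past 2-fold on the higher side.

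Markers of cell types cannot be read as levels in centred values, so the labelled cell line could not be checked by its defining markers. Their differences were as follows. Of 6 measured erythroid markers 5 lay above 0, with TFRC, the transferrin receptor, at 1.02, TAL1 at 0.81 and GATA1 at 0.25. All 4 measured megakaryocyte and platelet markers lay below 0, with GP9 at -0.37, PF4 at -0.20 and PPBP at -0.18. All 5 lymphocyte markers lay below 0, with CD3D at -0.67, CD2 at -0.45 and CD79A at -0.23. Of 4 myeloid markers LYZ stood at 1.05, MPO at -0.35 and CSF3R at -0.30. These directions depended on the scaling, and 91.4% of the rarely expressed families lay below 0 too. With the median of those families subtracted, 3 of the 4 platelet markers and 3 of the 5 lymphocyte markers lay above 0. Under that scaling 14910 of all 18377 genes lay above 0. With the machinery median subtracted 4 of the 6 erythroid markers lay below 0, beside 14285 of all 18377 genes. RGS18, a gene of platelets, stood at -0.10, outside the range of the platelet markers (-0.37 to -0.12). RGS1, a gene of lymphocytes, stood at -0.21, just inside that of the lymphocyte markers (-0.67 to -0.20). Their percentiles among all genes were 43.8 and 31.1, so such values are common. The labels name K562 cells only. In bulk RNA, fewer cells of a type and less RNA per cell cannot be told apart. Whether other cell types had a part in the differences of the members was not tested.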

How the data were processed

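Total RNA of 2 samples was measured, 1 Affymetrix Gene 1.0 ST array each, per the labels' protocols. The deposited table holds values read as log2, centred by probe by the authors, as positive and negative values around 0 show; the software, the normalization and the logarithm's base are not stated in the labels. Of 28869 probes, 19310 carried exactly 1 symbol in the platform annotation, 1752 several and 7807 were not listed. Symbols were updated by Entrez ID through a RefSeq table of GRCh38.p14 (19279 probes matched), and probes of a gene were averaged. Intensities and depth are unknown. Differences are with EPO minus without EPO, called at 2-fold. The arithmetic was tested on simulated data without noise between the arrays, which does not measure how reliable the calls are. Promoter letters came from RefSeq; 19 of the 22 RGS genes had windows. Named genes were all RGS genes, the 6 nearest to RGS2, its 3 measured neighbours on each side and the 3 largest differences in each of 8 other lists and 4 marker lists. GNA11, GNA14 and GNA15 were named besides, to complete the Gq class. The members and lists were chosen with earlier results of these data known. Alternatives were other scalings, probe rules, symbols and thresholds. Python 3.11.15, NumPy 2.4.6, pandas 2.3.3 and Matplotlib 3.10.9 were used.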

Additional observations from a re-analysis of the deposited data

How the results depend on the processing

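The difference of RGS2 ran from -3.29 to -2.48 over the 8 alternatives and stayed past 2-fold in each. Its gap to the other members ran from -3.07 to -2.59. The median of the 9 members, -0.21 as deposited, was -0.69 with the machinery median subtracted, 0.12 with the median of rarely expressed families subtracted and -0.51 as a mean. The count of members at least 2-fold lower was 2 in place of 1, RGS2 and RGS16, with the machinery median subtracted, with each array divided by its standard deviation and multiplied by the mean of both (0.278), and at a 1.5-fold threshold; the count of higher members was 0 in every alternative. With the machinery median subtracted, 6.57% of all genes were called lower and 0.68% higher, and with the median of rarely expressed families subtracted 0.566% and 15.1%. At 1.5-fold 4.65% were called lower. With each array divided by its standard deviation, the share of all genes called was not computed. The count of 2 members under that scaling therefore has no background beside it. Of the other 8 members, 5 changed sign with the median of rarely expressed families subtracted and 1 with the machinery median. Probe rules and symbol aliases moved none of these values, since each member has 1 probe. The comparison with the other R4 genes (-2.60) was added after the data had been seen. No paired analysis was possible because each group has 1 array, and for the same reason no replicate could be left out.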
